A study of Mus musculus with 8 samples.

Results

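Plasma cells arise from activated B cells and are built for antibody secretion. This set holds 8 genes of plasma cells that lie outside the immunoglobulin loci, taken by symbol from the 54749 genes to which the counted transcripts belong. Prdm1, Xbp1 and Irf4 encode transcription factors, Sdc1, Tnfrsf17 and Tnfrsf13b encode surface proteins, and Mzb1 and Derl3 encode proteins of the endoplasmic reticulum. All 8 passed the filter on low counts and were tested, among 21902 genes in all.

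In plasma cell differentiation, Irf4 and Prdm1 (Blimp-1) shut down the B cell programme, and Prdm1 allows Xbp1 to expand the secretory apparatus. Xbp1 is spliced by the stress sensor Ire1 (Ern1) and then drives genes for protein folding, translocation and the disposal of misfolded proteins. These genes are not restricted to plasma cells, since Irf4 and Prdm1 also act in other blood lineages and Mzb1 is also expressed by plasmacytoid dendritic cells.

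RNA was sequenced from cells that the authors name LT-HSCs (long-term haematopoietic stem cells), sorted from the bone marrow of 8 mice. Of these mice, 4 were asrij floxed and 4 asrij KO, with 1 library for each mouse. The methods describe the sorted cells as CD48+ for these libraries and LT-HSCs as CD48- elsewhere, and the authors' name is kept here. The floxed libraries are numbered 1, 3, 4 and 5 and the KO libraries 2, 3, 4 and 5, and values by library are given in this order throughout. Floxed mice carry the floxed asrij allele (gene Ociad1) on both chromosomes and served as controls, and KO mice lack asrij in the whole body, so any effect of other tissues on the sorted cells is part of the comparison. The labels give every mouse an age of 6 months. The methods state for the study as a whole that both sexes were used, without giving the sex of these 8 mice. The comparison asks which transcripts differ in young LT-HSCs without asrij.

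Gene counts summed to between 23412834 and 44874883 per library. Ociad1 was lower in every KO library than in any floxed library, with 14.8 ± 3.62 against 44.1 ± 15.7 CPM (read counts scaled by TMM to library size, SD, n = 4 each). The sorted cells held markers of several lineages. All 12 stem and progenitor markers examined were counted, with sums of 168.0 to 199.6 CPM in floxed and 161.6 to 203.4 CPM in KO libraries, whereas 10 neutrophil markers summed to 16991.0 to 52463.4 CPM and 25160.6 to 31472.0 CPM. Floxed replicate 3 stood apart from the other 3 floxed libraries. Its neutrophil sum of 16991.0 CPM lay below the 46385.4 to 52463.4 CPM of the others, and its sum over 10 erythroid markers, 6548.2 CPM, lay above their 2043.6 to 2194.6 CPM and near the KO range of 5832.2 to 6399.0 CPM. Counts of genes past the adjusted threshold are therefore given with and without this library.

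Per kilobase of spliced transcript, Xbp1 had the highest level of the 8 genes in floxed libraries, 66.2 ± 24.3 CPM per kilobase (SD, n = 4). Tnfrsf13b followed at 19.6 ± 0.415, Mzb1 at 11.3 ± 1.81 and Irf4 at 7.88 ± 4.24 CPM per kilobase. The levels of Mzb1 and Irf4 were closer than the sum of their SDs. Sdc1 (2.48 ± 0.719) and Derl3 (1.71 ± 0.599) came next and did not differ beyond their spread. Prdm1 (0.645 ± 0.0986) and Tnfrsf17 (0.559 ± 0.168) were the lowest and also lay within their spread. Because the counts cover introns too, the order was also taken per kilobase of genomic span, where Mzb1 (4.84) passed Tnfrsf13b (2.22) and Derl3 (0.891) passed Sdc1 (0.350), and the other ranks did not move. Tnfrsf17, which encodes the receptor BCMA of mature plasma cells, had only 6 to 20 reads in a library.

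**Figure D1:**
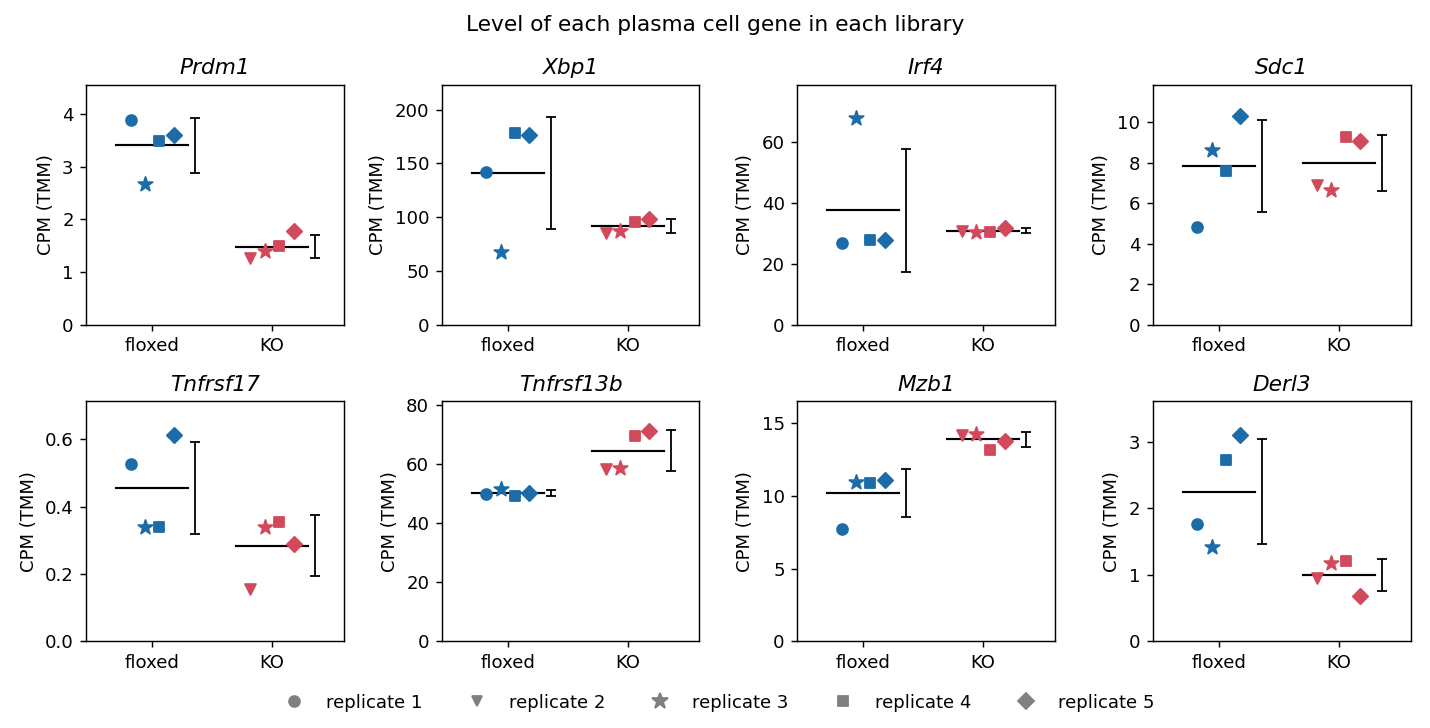
Level of each of the 8 plasma cell genes in each library, in TMM-normalized CPM on axes that start at 0, with the 4 floxed libraries at left and the 4 KO libraries at right of each panel. Lines are means, bars are 1 SD and symbols give the replicate number. KO libraries lie below every floxed library for Prdm1 and Derl3 and above every floxed library for Mzb1 and Tnfrsf13b, and floxed replicate 3 (star) is the lowest library for Xbp1 and the highest for Irf4.

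None of the 8 genes passed both thresholds of the study, an adjusted p-value (Benjamini-Hochberg over all genes tested) under 0.05 and a log2 fold change beyond 1.5 in either direction, in edgeR's quasi-likelihood test, nor in DESeq2 or limma-voom. Among all tested genes 1.19% passed both. With the adjusted p-value alone, 1 of the 8 was past the threshold, Prdm1, which was lower in KO LT-HSCs, against 2.97% of all tested genes, or 1.75% counting only those lower in KO. At an unadjusted p-value under 0.05 there were 5 of the 8, Prdm1, Xbp1, Tnfrsf13b, Mzb1 and Derl3, against 21.8% of all tested genes. The genotypes did not overlap for 4 of the 8, against 14.8% of all tested genes. KO was lower for 2 of these, Prdm1 and Derl3 (7.66% of all tested genes), and higher for the other 2, Tnfrsf13b and Mzb1 (7.1%). The median log2 fold change was -0.45 over the 8 genes and -0.00584 over all tested genes, with 5 negative and 3 positive values. The set thus did not move in 1 direction. In bulk RNA, fewer cells of a type and less RNA per cell cannot be told apart.

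Prdm1 encodes the repressor Blimp-1 and lies on the minus strand of chromosome 10 of GRCm38 (44437177 to 44528501), with the counted transcript, Prdm1-201, ending at 44458748. It had 3.88, 2.67, 3.49 and 3.60 CPM in the floxed libraries and 1.26, 1.40, 1.49 and 1.78 CPM in the KO libraries. All KO libraries were lower than all floxed libraries, and floxed replicate 3 was the lowest of the floxed libraries. These values rest on 82 to 147 reads per floxed and 42 to 54 reads per KO library. The mean fell from 3.41 ± 0.521 to 1.48 ± 0.219 CPM (SD, n = 4 each), a level 2.30-fold higher in floxed LT-HSCs. The log2 fold change was -1.20 (standard error, SE, 0.25, 95% confidence interval -1.76 to -0.64, adjusted p = 0.0383 in edgeR). Prdm1 was lower in KO by similar amounts within replicate numbers 1 to 3 (log2 ratio of the means -1.30) and within numbers 4 and 5 (-1.12), the classes into which the libraries of both genotypes fall.

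The size of the Prdm1 difference was steadier than its adjusted p-value. Over 8 fits that each left out 1 library, its log2 fold change ran from -1.29 to -1.11, but the adjusted p-value was under 0.05 only without floxed replicate 3 (0.0055) and reached 0.130 in the others. With replicate numbers 3, 4 and 5 as a block in the 6 libraries that share a number, it was -1.04 with an adjusted p = 0.175, and in that fit 0 of the 8 genes passed, against 0.222% of all tested genes.

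The transcripts of Prdm1 were counted separately in the files, with shared reads counted on each. In a fit across all transcripts, Prdm1-202, a protein-coding transcript, fell from 2.57 ± 0.361 to 0.869 ± 0.146 CPM, -1.49 on the log2 scale (SE 0.29, adjusted p = 0.0307 in edgeR). The log2 fold change was -1.87 for Prdm1-204 (adjusted p = 0.0650) and -1.84 for the retained-intron transcript Prdm1-203 (adjusted p = 0.0827), so these 2 did not pass. When the reads of all 4 transcripts were summed, the gene had a log2 fold change of -1.44 (adjusted p = 0.0259).

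Xbp1, the transcription factor of the unfolded protein response, lies on the plus strand of chromosome 11 (5520659 to 5525893). Its level was 141.7, 67.5, 178.2 and 176.6 CPM in the floxed libraries and 85.5, 87.5, 95.8 and 98.7 CPM in the KO libraries. The genotypes overlapped only through floxed replicate 3, which was the lowest of all 8 libraries, and the other floxed libraries were above every KO library. The means were 141.0 ± 51.8 and 91.8 ± 6.38 CPM (SD, n = 4 each). The adjusted p-value was not under 0.05 (log2 fold change -0.62, SE 0.27, 95% confidence interval -1.23 to -0.00, adjusted p = 0.227 in edgeR). Without floxed replicate 3 the floxed mean was 165.5 ± 20.6 CPM (SD, n = 3), and Xbp1 was past the adjusted threshold, with a log2 fold change of -0.84 (adjusted p = 0.00345). It was not past it in any other fit that left out 1 library, with adjusted p-values up to 0.439.

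Floxed replicate 3 had both the lowest neutrophil sum of the 8 libraries and the lowest Xbp1, and the other floxed libraries, at 46385.4 to 52463.4 CPM, had the highest of both. Within the KO libraries the order did not match, since KO replicate 2 had the highest neutrophil sum (31472.0 CPM) and the lowest Xbp1. The part of these cells in the Xbp1 difference was not tested. The genes whose log2(CPM + 1) followed Xbp1 most closely over the 8 libraries were Rac1 (Pearson r = 0.995), Gys1 (0.994) and Arhgap25 (0.994), as a description of 8 libraries that differ in depth and in marker sums. The files count reads over the span of a transcript and do not measure the splicing of Xbp1 by Ire1.

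Irf4 encodes an interferon regulatory factor needed at several steps of the B lineage and lies on the plus strand of chromosome 13 (30749226 to 30766976). It had 26.9, 67.8, 27.8 and 27.7 CPM in the floxed libraries and 30.8, 30.5, 30.3 and 31.9 CPM in the KO libraries. Floxed replicate 3 was above all others, with 3586 reads, and the other 7 libraries fell in a narrow band in which every KO library was above those 3 floxed libraries. With all libraries the log2 fold change was -0.28 (SE 0.30, 95% confidence interval -0.95 to 0.38, adjusted p = 0.633 in edgeR). Without floxed replicate 3 the sign turned, to 0.18 (adjusted p = 0.291), with a floxed mean of 27.5 ± 0.456 CPM (SD, n = 3) and a KO mean of 30.9 ± 0.711 CPM (SD, n = 4). No direction can be given for Irf4. The genes most like it over the 8 libraries were Msh5 (r = 0.992), Gpatch2 (0.991) and Palb2 (0.980). Each was also highest in floxed replicate 3, which follows from choosing genes by their correlation with Irf4.

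Among the surface proteins, Sdc1 encodes syndecan-1 (CD138), the heparan sulphate proteoglycan by which plasma cells are sorted, and lies on the plus strand of chromosome 12 (8771323 to 8793715). It had 4.85, 8.61, 7.61 and 10.3 CPM in the floxed libraries and 6.89, 6.66, 9.26 and 9.09 CPM in the KO libraries. The lowest and the highest value were both floxed, so the KO libraries lay wholly inside the floxed range. The log2 fold change was 0.03 (SE 0.25, adjusted p = 0.970 in edgeR), and its 95% confidence interval, -0.54 to 0.59, leaves room for a change in either direction.

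Tnfrsf17 (chromosome 16, plus strand, 11313812 to 11320074) had 20, 18, 8 and 16 reads in the floxed libraries and 6, 13, 10 and 8 reads in the KO libraries. The genotypes overlapped, and at this depth the level was 0.455 ± 0.137 CPM in floxed and 0.284 ± 0.0912 CPM in KO libraries (SD, n = 4 each). The log2 fold change of -0.68 had a 95% confidence interval from -1.68 to 0.32 (adjusted p = 0.418 in edgeR), so a difference was not detectable at this depth.

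Tnfrsf13b encodes TACI, the other receptor of the set for the B cell survival factors BAFF and APRIL, and lies on the plus strand of chromosome 11 (61126755 to 61149372). It had 49.8, 51.6, 49.1 and 50.1 CPM in the floxed libraries and 58.2, 58.7, 69.4 and 71.3 CPM in the KO libraries. Every KO library was above every floxed library, and the floxed libraries, replicate 3 included, were close together, whereas KO replicates 4 and 5 were above KO replicates 2 and 3. The means were 50.2 ± 1.06 and 64.4 ± 6.92 CPM (SD, n = 4 each). The log2 fold change was 0.36 (SE 0.13, 95% confidence interval 0.07 to 0.65, unadjusted p = 0.0215 and adjusted p = 0.152 in edgeR). On the plain library total, in place of TMM scaling, the genotypes overlapped. With a block for numbers 4 and 5 against 1 to 3 it was 0.35 with an adjusted p = 0.0423, in a fit in which 18.5% of all tested genes had an adjusted p-value under 0.05. The shorter transcripts inside its span differed less, with a log2 fold change of 0.26 for Tnfrsf13b-205 (adjusted p = 0.610) and -0.00 for Tnfrsf13b-206 (adjusted p = 0.993). The span also holds the pseudogene Gm12269, which had 3 reads over the 8 libraries against 15533 for Tnfrsf13b. No other member overlapped a second gene.

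Of the secretory proteins, Mzb1 encodes a chaperone-like protein of the endoplasmic reticulum that aids antibody assembly in marginal zone B cells and plasma cells. Mzb1 is also expressed by plasmacytoid dendritic cells and lies on the minus strand of chromosome 18 (35647267 to 35649367). It had 7.73, 11, 10.9 and 11.1 CPM in the floxed libraries and 14.2, 14.3, 13.2 and 13.8 CPM in the KO libraries. All KO libraries were above all floxed libraries, and floxed replicate 1 was low against the other 3 of its genotype. The mean was 10.2 ± 1.64 CPM in floxed and 13.9 ± 0.507 CPM in KO libraries (SD, n = 4 each). The log2 fold change was 0.45 (SE 0.17, 95% confidence interval 0.07 to 0.82, unadjusted p = 0.0250 and adjusted p = 0.163 in edgeR). On the plain library total the genotypes overlapped here too. Markers of B cells and of plasmacytoid dendritic cells had higher sums in the KO libraries as well, though not every marker rose. The log2 fold change was positive for 9 of 10 B cell markers and for 8 of 10 of plasmacytoid dendritic cells. A list of 10 B cell markers summed to 403.2 to 537.0 CPM in floxed and 586.9 to 742.7 CPM in KO libraries. Of the 10, 1 was past the adjusted threshold in edgeR, against 2.97% of all tested genes. This was Cd79a (0.81, adjusted p = 0.0408, against 0.72 and adjusted p = 0.150 with the replicate block). The sums over 10 markers of plasmacytoid dendritic cells were 434.5 to 478.8 and 485.5 to 523.7 CPM. Of these, 0 of 10 were past the adjusted threshold in edgeR, against the same 2.97%. Ccr9 was the largest part of these sums, with means of 220.6 and 249.7 CPM and overlapping genotypes. Runx2 (-0.23) and Lair1 (-0.46) had negative log2 fold changes, as did the B cell marker Ms4a1 (-0.12). When floxed replicate 3 was left out, 4 of the B cell markers and 2 of the plasmacytoid dendritic cell markers were past it, all higher in KO, against 17.5% of all tested genes. Cd79a was past it in no other fit that left out 1 library. None of these markers was at 0 in all libraries, and their part in the results for Mzb1 and Tnfrsf13b was not tested.

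Derl3 encodes a derlin of the pathway that returns misfolded proteins from the endoplasmic reticulum for degradation and lies on the plus strand of chromosome 10 (75893413 to 75895941). It had 1.77, 1.42, 2.72 and 3.10 CPM in the floxed libraries and 0.948, 1.17, 1.21 and 0.688 CPM in the KO libraries, from 64 to 81 reads per floxed and 19 to 45 reads per KO library. The KO libraries were below the floxed libraries, with floxed replicate 3 the nearest to them. The mean was 2.25 ± 0.791 CPM in floxed and 1.0 ± 0.239 CPM in KO libraries (SD, n = 4 each), which is -1.16 on the log2 scale (SE 0.35, 95% confidence interval -1.94 to -0.37, adjusted p = 0.0970 in edgeR). DESeq2 gave an adjusted p = 0.0321 for the same gene. Without floxed replicate 3 the log2 fold change was -1.32 (adjusted p = 0.0248). Of the 8 fits that each left out 1 library, only that 1 had an adjusted p-value under 0.05. The adjusted p-value was 0.138 in limma-voom and 0.253 in edgeR with the replicate block. The log2 ratio of the means was -0.59 within replicate numbers 1 to 3 and -1.62 within numbers 4 and 5, and the test of this difference gave an unadjusted p = 0.0947 in edgeR. The same interaction test found 0% of the 21902 genes past an adjusted threshold of 0.05, and 1863 genes at an unadjusted p-value under 0.05.

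**Figure D2:**
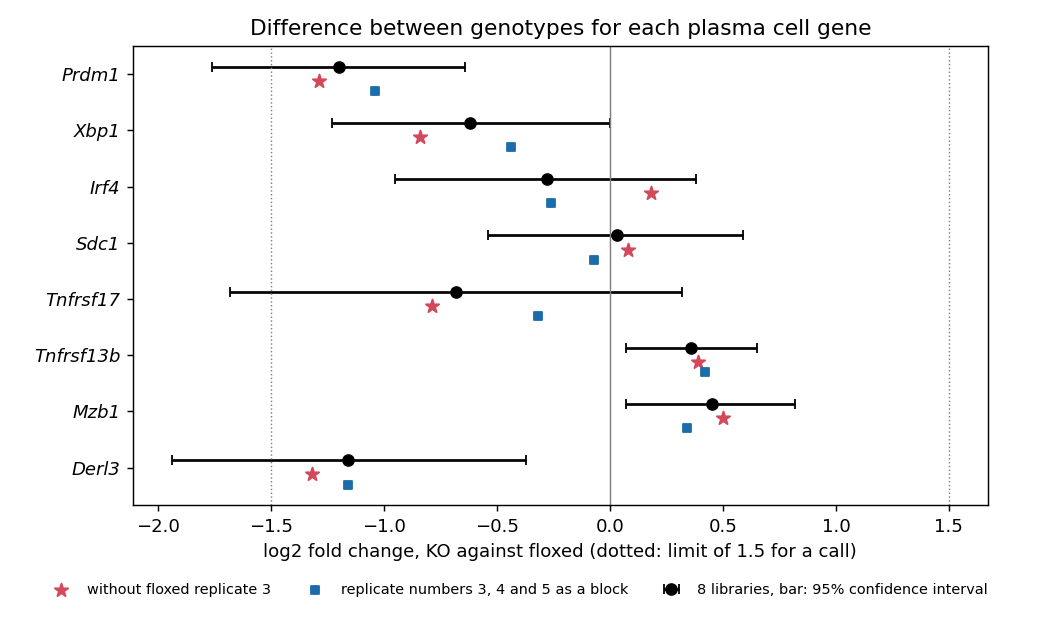
Log2 fold change of the 8 plasma cell genes in KO against floxed LT-HSCs. Black points and bars give edgeR's estimate and 95% confidence interval from all 8 libraries, stars the estimate without floxed replicate 3 and squares the estimate with replicate numbers 3, 4 and 5 as a block. Prdm1 (-1.20) and Derl3 (-1.16) have the lowest estimates, the intervals of Irf4, Sdc1 and Tnfrsf17 cross 0, and the star of Irf4 lies on the other side of 0.

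Leaving out floxed replicate 3 raised the number of these genes with an adjusted p-value under 0.05 from 1 to 3 of 8, Prdm1, Xbp1 and Derl3, all lower in KO. In that fit 17.5% of all 22094 tested genes had an adjusted p-value under 0.05. The block for numbers 4 and 5 also gave 3 of 8, Prdm1, Derl3 and Tnfrsf13b, against 18.5% of all tested genes in that fit.

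The promoters of 2 members are shown because a script found in them a motif of the regulators in this set. RefSeq's GRCm38.p6 annotation gave 1 promoter of 300 bases, from 250 bases before to 50 bases after the start, for 7 of the 8 genes. The endoplasmic reticulum stress element (ERSE, CCAAT and CCACG with 9 bases between them), bound by Atf6 and Xbp1 together with NF-Y, was present in Derl3 and in 0.119% of all 32851 promoters. An IRF repeat (GAAA and GAAA with 2 bases between) was present in Tnfrsf17 and in 3.44% of all promoters. Both matches are on the minus strand, at -156 to -138 and at -101 to -92 from the start, and are in capitals in the upstream sequences, which read 5′ to 3′ along the plus strand of GRCm38.p6 at chr10:75893148-75893397 and chr16:11313559-11313808.
Derl3: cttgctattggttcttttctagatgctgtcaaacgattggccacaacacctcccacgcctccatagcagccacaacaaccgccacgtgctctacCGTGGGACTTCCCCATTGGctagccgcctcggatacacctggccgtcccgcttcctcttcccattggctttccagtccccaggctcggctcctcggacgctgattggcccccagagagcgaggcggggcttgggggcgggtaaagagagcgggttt
Tnfrsf17: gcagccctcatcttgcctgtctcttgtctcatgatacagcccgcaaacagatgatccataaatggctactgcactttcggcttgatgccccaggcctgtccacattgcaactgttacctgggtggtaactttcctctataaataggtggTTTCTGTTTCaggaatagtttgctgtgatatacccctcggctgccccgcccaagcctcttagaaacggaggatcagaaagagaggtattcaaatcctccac
The shorter ERSE-II (ATTGG and CCACG with 1 base between them, 0.0365% of promoters), the core TGACGTG of the unfolded protein response element (2.01%) and the PU.1-IRF composite (GGAA and GAAA with 2 bases between them, 2.72%) were searched for on both strands and had no match in the 7 windows. A match to the composite can overlap one to the IRF repeat. These are matches of letters, and binding was not measured.

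The members did not follow 1 pattern over the libraries. Over the 8 libraries, the Pearson correlation of log2(CPM + 1) was 0.82 between Prdm1 and Derl3, 0.80 between Xbp1 and Derl3 and 0.72 between Prdm1 and Xbp1. Prdm1 ran against Mzb1 (-0.88) and Tnfrsf13b (-0.78), and Xbp1 against Irf4 (-0.68). These values are descriptions over 2 genotypes that share libraries and depth. The genes most like Prdm1 were Tgfbr2 (r = 0.994), Hspa12a (0.989) and Dglucy (0.988). They were chosen for following Prdm1 over these same 8 libraries. Their lower levels in KO therefore came with the choice and are not separate evidence. Derl3 was followed most closely by Adgrb1 (0.975), Ceacam16 (0.972) and Pramef8 (0.970). For Tnfrsf13b they were Mapk11 (0.996), Mir25 (0.992) and Fam76a (0.985), and for Mzb1 Nob1 (0.984), Mad2l2 (0.979) and Polr2c (0.971). The closest to Sdc1 were Sapcd2 (0.957), Abcb8 (0.952) and Tas1r1 (0.948), and to the sparsely counted Tnfrsf17 they were Mir8101 (0.970), Nrp2 (0.962) and Arfip2 (0.937).

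Of 11 immunoglobulin genes that plasma cells transcribe, 5 passed both thresholds, all lower in KO, against 1.19% of all tested genes. The other 6 did not pass, 2 of the 11 log2 fold changes were positive, and the median over the 11 was -1.91. Jchain, which encodes the joining chain of secreted IgM and IgA, had 139.3, 57.2, 135.1 and 106.5 CPM in the floxed libraries and 40.9, 38.7, 28.7 and 30.6 CPM in the KO libraries (log2 fold change -1.66, adjusted p = 0.0239 in edgeR). Floxed replicate 3 was the lowest floxed library for Jchain and was still above the KO libraries. For the IgG1 constant gene Ighg1 it had 3.88 CPM, below the 5.0 to 7.75 CPM of the KO libraries, whereas the other floxed libraries had 230.8 to 333.4 CPM. The log2 fold changes of the heavy-chain genes that passed were -5.24 for Ighg1, -3.85 for Ighg2c, -2.76 for Ighg2b and -2.13 for Ighg3, with adjusted p-values from 0.0310 to 0.0471. With the replicate block 0 of the 11 had an adjusted p-value under 0.05 (for Jchain -1.52, adjusted p = 0.138), against 0.222% of all tested genes. Without floxed replicate 3 there were 8, against 17.5%. Over 8 fits that each left out 1 library, Jchain had an adjusted p-value under 0.05 in 2. Ighg1, Ighg2b, Ighg2c and Ighg3 had it in 1 each, the fit without floxed replicate 3. Summed over the 11 genes, the level in floxed replicate 3 was 1237.7 CPM, inside the KO range of 1073.7 to 1400.3 CPM, against 2944.7 to 4564.9 CPM in the other floxed libraries. Among the members, Xbp1 was likewise below its KO levels in that library, Derl3 was near its KO level, and Prdm1 was nearer to the other floxed libraries.

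**Figure D3:**
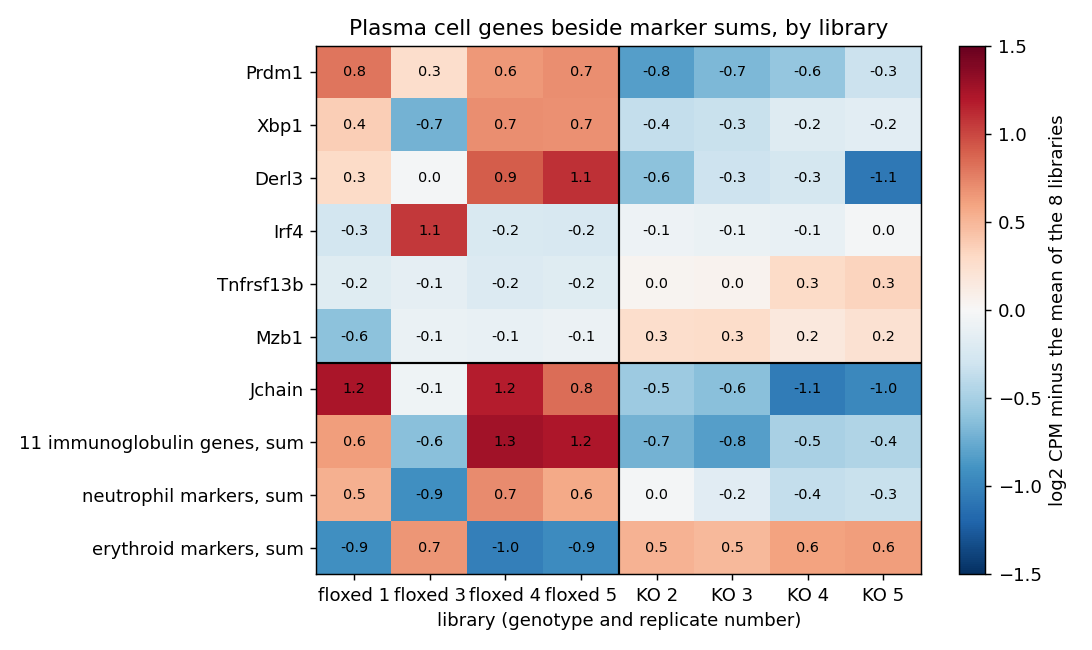
Log2 CPM of 6 plasma cell genes, of Jchain and of 3 summed lists in each library, minus the mean of the 8 libraries (colour and printed value). Floxed replicate 3 differs from the other floxed libraries in the sums of immunoglobulin, neutrophil and erythroid genes and in Xbp1 and Irf4, while Prdm1 is above the KO libraries in all 4 floxed libraries.

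The genes that Xbp1 and its sensor are known to act with were examined as lists. With all 8 libraries, 2.97% of all tested genes had an adjusted p-value under 0.05, the share to set beside the counts below. Of 7 sensors and factors of the unfolded protein response, 1 passed the adjusted threshold. Ppp1r15a, the stress-induced subunit that directs dephosphorylation of eIF2-alpha, was at 122.7 ± 52.9 CPM in the floxed and 321.1 ± 65.1 CPM in the KO libraries (log2 fold change 1.39, adjusted p = 0.0408 in edgeR, against 1.37 and adjusted p = 0.157 with the replicate block). Floxed replicate 3 was the highest floxed library for Ppp1r15a, at 200.6 CPM, and without it the log2 fold change was 1.74 (adjusted p = 0.00095), past both thresholds. With any other single library left out, Ppp1r15a did not pass the adjusted threshold. In the fit without floxed replicate 3, 2 of the 7 had an adjusted p-value under 0.05, 1 higher and 1 lower in KO, against 17.5% of all tested genes. Ern1, the nuclease that splices Xbp1, was at 54.7 ± 6.82 and 37.9 ± 2.73 CPM (log2 fold change -0.53, adjusted p = 0.0741) and did not pass, although its KO values were all below its floxed values.

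None of 23 chaperones and folding enzymes of the endoplasmic reticulum, of 21 genes of the translocon and signal peptidase and of 16 genes of endoplasmic reticulum-associated degradation had an adjusted p-value under 0.05 in edgeR. Their median log2 fold changes were -0.17, 0.07 and -0.10. Of the chaperone list, 18 of 23 values were negative, and the extremes were Ero1l, an oxidase that drives disulphide formation (-0.84, adjusted p = 0.0510), and Selenom (0.75, adjusted p = 0.283). In the translocon list they were Spcs3 (-0.44, adjusted p = 0.148) and Srp14 (0.59, adjusted p = 0.0929). In the degradation list, which holds the partners of Derl3, they were Edem1 and the ubiquitin ligase gene Syvn1 (0.48, adjusted p = 0.250). Edem1, a lectin that delivers misfolded glycoproteins for disposal, was at 198.0 ± 52.2 CPM in the floxed and 115.4 ± 7.93 CPM in the KO libraries (log2 fold change -0.78, adjusted p = 0.0744). The genotypes did not overlap, but only narrowly, with floxed replicate 3 at 123.4 CPM and KO replicate 3 at 122.6 CPM. Without floxed replicate 3, 8 of the 23 chaperones passed the adjusted threshold, 7 of them lower and 1 higher in KO, as did 1 of 21 genes of the translocon list and 2 of 16 of the degradation list, all 3 lower. That compares with 17.5% of all genes in the same fit.

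Among 9 ligands, receptors and adaptors of the BAFF and APRIL system, 1 passed the adjusted threshold. This was Tnfsf13b, the gene of BAFF, a ligand of the receptors Tnfrsf13b and Tnfrsf17, which is named here because it passed. It had 63.6, 40.1, 56.3 and 61.2 CPM in the floxed libraries and 27.8, 26.1, 29.6 and 30 CPM in the KO libraries. The genotypes did not overlap, and the mean fell from 55.3 ± 10.6 to 28.3 ± 1.81 CPM (log2 fold change -0.96, adjusted p = 0.0266 in edgeR, against -0.84 and adjusted p = 0.122 with the replicate block, and -1.08 and adjusted p = 0.000603 without floxed replicate 3). With any other single library left out, Tnfsf13b did not pass. Tnfsf13, the gene of APRIL, had the lowest log2 fold change of the list, -1.16, with an adjusted p = 0.121, and floxed replicate 3, at 4.33 CPM, was below all KO libraries. Traf5 had the highest, 0.52 (adjusted p = 0.273). In the fit that left out floxed replicate 3, 3 of the 9 passed, all lower in KO, against 17.5% of all tested genes. BAFF is made mainly by myeloid cells, and the neutrophil sums given above differed between the same libraries. Their part in the Tnfsf13b difference was not tested.

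Of 15 B cell factors and partners of Irf4, 1 passed the adjusted threshold. Id3, an inhibitor of E proteins, rose from 5.28 ± 1.66 to 12.4 ± 3.30 CPM (log2 fold change 1.23, adjusted p = 0.0495 in edgeR, against 1.17 and adjusted p = 0.122 with the replicate block, and 1.32 and adjusted p = 0.0222 without floxed replicate 3). With any other single library left out, Id3 did not pass. At the other end, Ikzf3 had a log2 fold change of -0.97 (adjusted p = 0.204), with floxed replicate 3 the highest library at 83.0 CPM. Without that library 7 of the 15 passed, 5 higher and 2 lower in KO, against 17.5% of all tested genes. Of 20 other plasma cell genes, 0 passed in edgeR, with a median log2 fold change of -0.19 and extremes at Ackr3 (-0.88, adjusted p = 0.579) and Tent5c (0.70, adjusted p = 0.203). Leaving out floxed replicate 3, 4 of the 20 passed, 2 in each direction, near the 17.5% of all tested genes in that fit.

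Of 3 other syndecans, 1 passed the adjusted threshold. Sdc4 rose from 15.7 ± 2.46 to 26.3 ± 1.26 CPM (0.74, adjusted p = 0.0407 in edgeR, against 0.70 and adjusted p = 0.159 with the replicate block, and 0.84 and adjusted p = 0.0051 without floxed replicate 3), and is named because it passed. With any other single library left out, Sdc4 did not pass. The values for Sdc3 (0.86, adjusted p = 0.0941) and Sdc2 (0.36, adjusted p = 0.493) did not pass. Of the 3, 2 passed without floxed replicate 3, both higher in KO, against 17.5% of all tested genes.

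**Figure D4:**
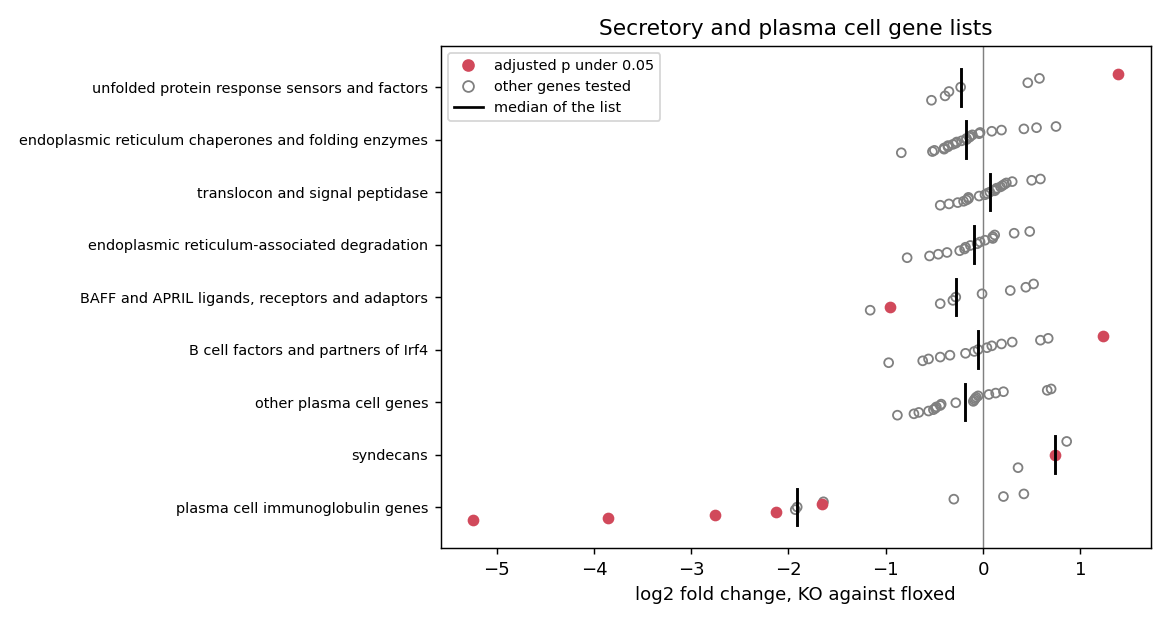
Log2 fold change, KO against floxed, of each tested gene in 9 lists of secretory and plasma cell genes. Filled points have an adjusted p-value under 0.05 in edgeR and black lines mark the median of a list. Only the immunoglobulin list has a median far below 0 (-1.91), and 1 filled point each is seen for the unfolded protein response, BAFF and APRIL, B cell factor and syndecan lists.

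Markers of other cells also differed between the libraries, and 2.97% of all tested genes had an adjusted p-value under 0.05. Of 10 macrophage markers, 4 passed the adjusted threshold, all higher in KO, with sums of 264.4 to 372.5 CPM in floxed and 564.7 to 620.9 CPM in KO libraries. Of 10 markers of T and NK cells, 1 passed and was lower in KO, with sums of 84.7 to 108.0 and 67.5 to 71.0 CPM. Among 8 markers of basophils and mast cells, 1 passed and was lower in KO. Floxed replicate 3 had the lowest sum of that list, 116.9 CPM, against 591.8 to 676.4 CPM in the other floxed and 314.0 to 369.5 CPM in KO libraries. Of the 10 erythroid and the 12 stem and progenitor markers, 1 each passed and was higher in KO, and 0 of the 10 neutrophil markers passed in edgeR.

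With the replicate block, 0 markers of any of these lists passed in edgeR, against 0.222% of all tested genes. The adjusted p-values of the 4 macrophage markers were then from 0.0805 to 0.148. Without floxed replicate 3 the counts rose, in the fit in which 17.5% of all genes passed. They came to 10 of 10 erythroid, 8 of 10 macrophage and 2 of 12 stem and progenitor markers, all higher in KO. Lower in KO were 6 of 10 neutrophil markers, 6 of 8 of basophils and mast cells and 3 of 10 of T and NK cells. None of these markers was at 0 in all libraries, and their part in the results for the 8 plasma cell genes was not tested.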

How the data were processed

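The authors sorted LT-HSCs, described for these libraries as Lin- Sca-1+ c-Kit+ CD150+ CD48+ cells and elsewhere in the methods as CD48-, made libraries from total RNA and sequenced them on an Illumina instrument. Reads were checked with FastQC, trimmed with Trim Galore and aligned to GRCm38/mm10 transcripts with Bowtie 2. The authors deposited raw counts per Ensembl transcript, 138930 of them, for every library. The counting tool, strand use, annotation release and software versions were not given in the sources used here. Of the 8 files, 7 are separated by tabs, and an automatic check of units could not read them and recorded them as another unit. Every deposited value was separately found to be a whole count.

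Transcripts were joined to GENCODE M21 (138789 identifiers found), and each gene was represented by its most counted transcript over the 8 libraries. In all 2382 cases of a transcript with at least 800 counts inside an intron of another gene, 1598 of them on the opposite strand, the count of the outer transcript was never the smaller one in any library, so that counts cover introns and both strands. Genes were filtered with filterByExpr, normalized by TMM and tested by quasi-likelihood in edgeR 4.0.16 under R 4.3.3, and p-values were adjusted by Benjamini-Hochberg. Standard errors were computed from its F statistics. DESeq2 1.42.0 and limma-voom (limma 3.58.1) were alternatives, and the fits were tested on simulated data. Depth and differences between mice were not separated in these errors. Each library is 1 mouse, and the tests set the genotype difference against the variation between libraries.

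The members, lists, tests and rule for named genes (members, extremes or calls of each list, and the 3 genes of highest correlation with a member) were chosen with earlier results of these data known. Of the listed genes, Hm13 and Camlg were matched through their RefSeq synonyms, and Ddit3, which names 2 gene models, was not used. Replicate numbers 3, 4 and 5 come from the labels and belong to different mice. Their deviations from the genotype means were correlated between the libraries of a number (correlations 0.374, 0.394 and 0.579), about as much as other libraries of the same number class did (mean 0.458), and a block was fitted as an alternative. Other alternatives were filters, scalings, thresholds, sums over transcripts and each library left out. The test of each transcript, and the number block without floxed replicate 3, were added after seeing the data.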

Additional observations from a re-analysis of the deposited data

Results flagged for a closer look

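Among 18 groups of 4 libraries, those of the 8 members and Ociad1 in each genotype, 2 held a library far from the other 3, where chance alone gives about 0.90. Irf4 in floxed replicate 3 was at 67.8 CPM, with the other floxed libraries at 26.9 to 27.8 CPM. Mzb1 in floxed replicate 1 was at 7.73 CPM, with the others at 10.9 to 11.1 CPM.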

How the results depend on the processing

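The sign of the log2 fold change of Prdm1, Xbp1, Tnfrsf17, Tnfrsf13b, Mzb1 and Derl3 was kept in every alternative run, except that Tnfrsf17 was not tested under a filter of 1 CPM in 4 libraries. The sign of Irf4 turned without floxed replicate 3 (0.18, with a range from -0.40 to 0.18 over the libraries left out) and with that library left out beside the number block (0.19). That of Sdc1, main value 0.03, turned with the replicate block (-0.07) and ran from -0.13 to 0.19 with each library left out. The adjusted p-value of Prdm1 was under 0.05 in 12 of 21 alternatives, with a range from 0.000452 to 0.175. It was under 0.05 in 4 of 21 for Derl3, in 2 of 21 each for Xbp1 and Tnfrsf13b and in 1 of 21 for Mzb1.

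The number of plasma cell genes called stayed at 0, also with each library left out (0 to 0), and was 1 with the adjusted p-value alone. Over all genes, the 261 calls became 503 with DESeq2, 44 with the replicate block, 521 with the number block, 1067 with each transcript tested, 1157 with the number block and without floxed replicate 3, 651 with the adjusted p-value alone, 624 with the unadjusted p-value, and 51 to 857 with each library left out. Each of the 8 libraries left out moved it by over 1.5 times, with the lowest number without floxed replicate 1 and the highest without floxed replicate 3. Calls were split into 99 higher and 162 lower with TMM and edgeR, and into 113 and 73 with limma-voom. The cause was not tested. The replicate block changed no call of the 8 genes other than the adjusted p-value of Prdm1. Low counts limit Tnfrsf17, Prdm1 and Derl3 most.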
